A study of Mus musculus with 20 samples.

Results

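The fasting and fatty acid oxidation genes Ppara, Cpt1a, Acadm, Acaa2, Angptl4, Pdk4, Acot1, Plin2 and Ehhadh were followed in the terminal ileum of mice fed with or without tryptophan and with or without antibiotics. They were taken by name, as known targets of the nuclear receptor PPAR-alpha, and make up 9 of the 35204 genes in the table of estimated counts. All 9 were among the 16306 genes that passed the filter on low counts. The mice were female C57BL/6 animals, 7 weeks old at the start, and all stayed on their diet for 3 weeks. Specific pathogen-free (SPF) mice received the control amino acid diet (CD) or the same diet without tryptophan (TDD). The CD+ABX and TDD+ABX groups were given the same diets and drank a mixture of ampicillin, vancomycin, metronidazole, neomycin and gentamycin (ABX). The paper's methods add that this water was sweetened with sucrose, and do not say so for the SPF mice. An effect named ABX is that of this water as a whole. The paper also reports strong weight loss on TDD, which was far milder in mice given ABX. In an effect named TDD, the missing tryptophan and the weight loss cannot be told apart. Each group held 5 mice and 1 poly-A library per mouse.

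When carbohydrate runs short, fatty acids released from fat stores bind PPAR-alpha, which pairs with a retinoid X receptor and switches on the genes that import, activate and burn fat. Fatty acids enter the mitochondrial matrix as acyl-carnitines and are shortened there by beta-oxidation, while peroxisomes begin on the chains that mitochondria handle poorly. In the small intestine, enterocytes of the villus see large amounts of dietary fat, and PPAR-alpha, PPAR-delta and their targets are expressed in them.

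Total counts ranged from 36676963 to 58662617 per mouse, so that the least abundant of the 9 genes, Acot1, was still represented by 93 to 331 counts and the others by 343 to 8107. Levels are given as CPM (counts scaled to library size), which compare mice but not genes, and as TPM (transcript abundance scaled for length) where genes are compared, since TPM alone is per length. The epithelial gene Vil1 stood between 2491 and 5132 CPM in all 20 mice, and Alpi and Apoa4, genes of the small-intestinal enterocyte, between 420 and 1104 and between 1295 and 11796 CPM. The ileal bile acid genes Fabp6 and Slc10a2 were low in all 10 SPF mice (at most 3.91 and 8.80 CPM) and higher with ABX (log2 fold change of Slc10a2 4.07 ± 0.48 (SE) on CD and 2.65 ± 0.44 on TDD, q = 9.83e-05 and 0.00140). No other gene that sets the ileum apart from the rest of the small intestine was examined. Of 4 colonocyte markers, Car1 and Aqp8 lay at or near 0 in nearly every mouse, while Slc26a3 stood between 126 and 184 CPM and Muc4 between 11.8 and 53.0 CPM. Some libraries stood apart. CD mouse 2 had the lowest level of the brush border enzyme Alpi (420 CPM, against 627 to 1104 CPM elsewhere) and the highest sum of 5 smooth muscle markers (2312 CPM), CD mouse 5 held 125 CPM of 4 pancreatic acinar markers against at most 0.77 CPM elsewhere, and the adipocyte gene Adipoq exceeded 1 CPM in 9 mice, of which 2 were CD, 3 TDD, 3 CD+ABX and 1 TDD+ABX. TDD mice 4 and 5 and CD+ABX mice 1 and 2 held up to 28.3 CPM of 4 hepatocyte markers against at most 9.12 CPM elsewhere, and Alb alone, at 10.9 to 14.9 CPM in these and at most 0.168 CPM in the other 16, was higher on TDD in SPF mice and lower with ABX on TDD (q = 0.0436 and 0.0386). The fits were repeated in 3 smaller sample sets, without CD mice 2 and 5, in the 11 mice under 1 CPM of Adipoq and in the 16 mice under 1 CPM of Alb. The calls among the genes named that were lost there are given, except where said. The Adipoq and Alb sets hold fewer mice in every comparison. For TDD in SPF mice 6.37% and 6.18% of all genes had a q under 0.05 in them, against 14.4% with all 20 mice. Whether a call was lost there because of the smaller groups was not tested.

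The 9 genes did not move as a block (edgeR's quasi-likelihood test over all 16306 genes, with q the Benjamini-Hochberg adjusted p-value and a gene said to have changed at a q under 0.05). TDD feeding of SPF mice changed 2 of the 9 genes, Ppara upward and Plin2 downward, where 14.4% of all genes tested passed. None of the 9 changed by 2-fold or more there by edgeR, DESeq2 or limma. By edgeR 1.83% of all genes did, by DESeq2 314 of 16306 and by limma 146 of 16571. By edgeR 3 of the 9 had an unadjusted p under 0.05. Under ABX, TDD feeding changed 0 of the 9 by edgeR, DESeq2 or limma, against 1.64%, 3.76% and 1.3% of all genes, in that order. By edgeR 0.307% of all genes passed with the 2-fold limit, and 1 of the 9 had an unadjusted p under 0.05. ABX changed 4 of the 9 in CD mice (1 higher and 3 lower), where 12.6% of all genes passed, and 2 of the 9 in TDD mice (1 higher and 1 lower), where 15.4% did. Pdk4 alone passed the 2-fold limit as well, in both ABX comparisons, where 2.25% and 1.63% of all genes did. The median log2 fold change of the 9 was -0.09 and -0.02 for TDD without and with ABX, and -0.08 and -0.17 for ABX on CD and on TDD, beside medians of 0.01, -0.0030, -0.0048 and -0.03 over all genes tested. The groups did not overlap for 1, 0, 1 and 1 of the 9 genes in these comparisons, in the order just given, where 9.58%, 4.78%, 9.74% and 11.0% of all genes were separated. No difference between the diet effects with and without ABX (the interaction) passed for any of the 9 by edgeR, DESeq2 or limma, although 1 had an unadjusted p under 0.05 by edgeR. Only 0.0368% of all genes passed that test by edgeR (0.0245% with the 2-fold limit), 0.822% by DESeq2 and 0.0603% by limma. The comparisons share groups, so that a low or high value in CD mice enters both the diet effect without ABX and the ABX effect on CD.

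**Figure D1:**
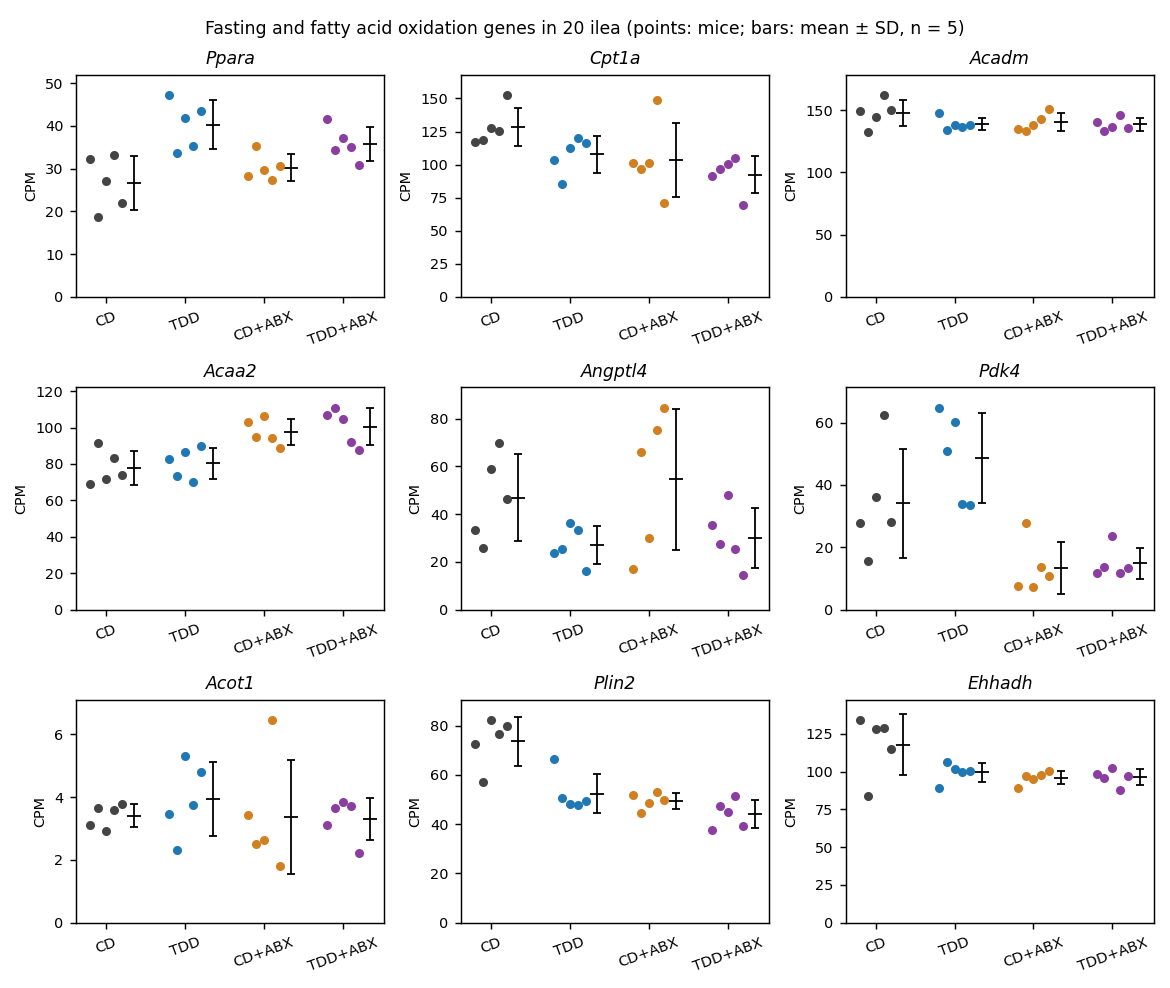
Level of each of the 9 genes (CPM, linear axis from 0) in every mouse, by group, with the mean ± SD beside each group (n = 5). Pdk4 is low in both ABX groups, and Plin2 has its highest mean in CD mice, though TDD mouse 1 lies above CD mouse 2. Ppara is highest in TDD mice, and Acadm hardly varies.

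Ppara (chr15:85734983-85802819, plus strand, GRCm38) encodes the receptor itself, and its transcript rose on TDD in SPF mice. In these it stood at 32.3, 18.7, 27.1, 33.2 and 21.9 CPM on CD and at 47.3, 33.7, 41.9, 35.3 and 43.4 CPM on TDD. Every TDD mouse lay above every CD mouse, though the lowest TDD mouse exceeded the highest CD mouse by little. The log2 fold change was 0.60 ± 0.14 (SE, n = 5 per group, q = 0.00660 by edgeR). With ABX, the values were 28.4, 35.3, 29.7, 27.3 and 30.7 CPM on CD and 41.6, 34.5, 37.2, 35.1 and 30.8 CPM on TDD, and the groups overlapped (log2 fold change 0.24 ± 0.14, q = 0.426). The diet effects with and without ABX differed by -0.35 ± 0.19, which did not pass (q = 0.626). ABX gave log2 fold changes of 0.18 ± 0.14 on CD (q = 0.437) and -0.17 ± 0.14 on TDD (q = 0.418). The 2 lowest CD values came from the mice that stood apart, and without CD mice 2 and 5 the diet effect in SPF mice was 0.38 (q = 0.0413). It was 0.49 and no longer passed in the mice under 1 CPM of Adipoq (q = 0.0939), and in the mice under 1 CPM of Alb it was 0.61 and passed (q = 0.0415). It passed in all 20 fits that left out 1 mouse (0.49 to 0.69).

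Cpt1a (chr19:3322334-3385733, plus strand) makes the liver-type carnitine palmitoyltransferase that commits fatty acids to the mitochondrion. It averaged 128 ± 14.5 CPM in CD mice, 108 ± 13.9 in TDD mice, 104 ± 28.1 in CD+ABX mice and 92.5 ± 13.7 in TDD+ABX mice (SD, n = 5). All values lay between 69.5 and 153 CPM, and the groups overlapped in each of the 4 comparisons of diet or ABX alone. None of these passed, with log2 fold changes between -0.31 and -0.16 (SE 0.15 each) and q from 0.205 upward. The fall with ABX on CD passed in 1 of 20 fits without 1 mouse. That fit left out CD+ABX mouse 4, the highest of its group at 149 CPM (log2 fold change -0.47, q = 0.0277). Across both factors, every TDD+ABX mouse lay below every CD mouse, with a difference of -0.47 ± 0.15 on the log2 scale (q = 0.0316), a comparison in which 21.8% of all genes and 6 of the 9 passed.

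Acadm (chr3:153922357-153944632, minus strand) encodes medium-chain acyl-CoA dehydrogenase, the first enzyme of a beta-oxidation cycle, and was the steadiest and the most abundant per length of the 9. Its 20 values lay between 133 and 162 CPM, a 1.22-fold range, and its mean TPM was 136 over all its transcripts. On its main coding transcript alone it was 84.2, close to the 83.3 of Acaa2. The log2 fold changes of the 4 comparisons lay between -0.09 and -0.0022 (SE 0.05 each), with q from 0.275 upward.

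Acaa2 (chr18:74779197-74806208, plus strand) encodes the mitochondrial thiolase that ends each cycle, and it rose with ABX on either diet. On CD it stood at 69.3, 91.5, 71.9, 83.0 and 73.8 CPM without ABX and at 103, 95.0, 106, 94.0 and 88.6 CPM with ABX. On TDD it stood at 82.8, 73.1, 86.5, 70.1 and 89.8 CPM without ABX and at 107, 111, 105, 92.0 and 87.9 CPM with ABX. Only CD mouse 2 reached the ABX-treated mice on CD, and only TDD mouse 5 overlapped on TDD. The log2 fold change was 0.32 ± 0.09 on both diets (q = 0.0226 on CD and 0.0212 on TDD), and diet gave 0.05 ± 0.09 with or without ABX (q = 0.861 and 0.777). Either ABX effect passed in 16 of 20 fits without 1 mouse. The effect on CD missed the threshold without CD mouse 1, 3 or 5 or CD+ABX mouse 3, and that on TDD without TDD mouse 2 or 4 or TDD+ABX mouse 1 or 2, with q up to 0.0612 and values of 0.27 to 0.39. The effect on CD also missed it in the mice under 1 CPM of Adipoq (0.28, q = 0.179), and in the mice under 1 CPM of Alb both did (0.32, q = 0.0782 on CD and 0.34, q = 0.0708 on TDD).

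Ehhadh (chr16:21761287-21787807, minus strand) encodes the bifunctional enzyme of peroxisomal beta-oxidation. In CD mice it stood at 134, 84.0, 128, 129 and 115 CPM, and in CD+ABX mice at 89.4, 97.3, 95.0, 97.6 and 100.4 CPM. In TDD mice it stood at 89.0, 106, 102, 99.5 and 100.4 CPM, and the TDD+ABX values lay between 88.0 and 103 CPM. Apart from CD mouse 2, the lowest of all 20, the CD mice lay above every other mouse. Ehhadh fell with ABX on CD (log2 fold change -0.30 ± 0.09, q = 0.0393), and TDD without ABX gave -0.25 ± 0.09 (q = 0.0803). The ABX effect passed in only 7 of 20 fits without 1 mouse, among them those without CD mouse 2 and without each of TDD mice 1, 2, 4 and 5 or TDD+ABX mice 2 and 4. Its value stayed between -0.39 and -0.25, with q up to 0.106. It also missed the threshold by limma on log2(TPM + 1) (-0.28, q = 0.0642) and with DESeq2's size factors in edgeR (-0.28, q = 0.0549), with no filter on low counts (q = 0.0632), with only the 2 groups in the fit (q = 0.149), with a replicate block (q = 0.0737) and in the mice under 1 CPM of Adipoq (-0.31, q = 0.0705) or of Alb (-0.26, q = 0.210). TDD without ABX passed only without CD mouse 2 (-0.35).

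Pdk4 (chr6:5483351-5496309, minus strand) encodes a kinase that shuts pyruvate dehydrogenase and so spares glucose while fat is burned, and it gave the largest change of the 9. On CD it stood at 27.7, 15.6, 36.3, 62.4 and 28.2 CPM without ABX and at 7.56, 27.8, 7.29, 13.7 and 10.7 CPM with ABX. On TDD it stood at 64.8, 51.0, 60.1, 34.0 and 33.5 CPM without ABX and at 11.9, 13.7, 23.7, 11.6 and 13.5 CPM with ABX. On TDD every untreated mouse lay above every ABX-treated mouse, and on CD the groups overlapped only through CD+ABX mouse 2, which lay above CD mice 1 and 2. The log2 fold change with ABX was -1.71 ± 0.38 on TDD (q = 0.00803) and -1.35 ± 0.38 on CD (q = 0.0274). TDD itself gave 0.51 ± 0.37 without ABX (q = 0.394) and 0.16 ± 0.38 with ABX (q = 0.890), and the interaction was -0.36 ± 0.53 (q = 0.897). In the order TDD, CD, TDD+ABX, CD+ABX, the middle neighbours differed (CD above TDD+ABX, q = 0.0316) and the outer ones did not. The effect on TDD passed in all 20 fits without 1 mouse (-1.93 to -1.58). The effect on CD passed in 14 of them and was lost without CD mouse 3 or 4 or CD+ABX mouse 1, 3, 4 or 5, with values of -1.79 to -1.01 over the 20 fits and q up to 0.0845. In the mice under 1 CPM of Adipoq neither passed (-1.60, q = 0.0758 on TDD and -1.13, q = 0.284 on CD), while in those under 1 CPM of Alb both did (-1.95, q = 0.0102 and -1.68, q = 0.0210). The effect on CD was also lost with no filter on low counts (q = 0.0581), with only the 2 groups in the fit (q = 0.0926) and with a replicate block (q = 0.0525).

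Plin2 (chr4:86648386-86670060, minus strand) encodes a coat protein of lipid droplets. It fell with TDD in SPF mice and with ABX on CD, and the CD mice were the high group. In SPF mice it stood at 72.4, 57.0, 82.1, 76.6 and 79.7 CPM on CD and at 66.4, 50.5, 48.0, 47.7 and 49.2 CPM on TDD. With ABX it stood at 51.9, 44.5, 48.6, 52.9 and 49.7 CPM on CD and at 37.7, 47.3, 45.1, 51.5 and 39.1 CPM on TDD. The 5 CD mice lay above all 5 CD+ABX mice and overlapped the TDD mice only through CD mouse 2 and TDD mouse 1. The log2 fold change was -0.49 ± 0.11 for TDD without ABX (q = 0.00491) and -0.57 ± 0.11 for ABX on CD (q = 0.00217). TDD under ABX gave -0.17 ± 0.11 (q = 0.506) and ABX on TDD -0.25 ± 0.11 (q = 0.128), neither of which passed. The latter had an unadjusted p of 0.0340 by edgeR, with 4 of 5 TDD+ABX mice below every TDD mouse. Both treatments together against neither gave -0.74 ± 0.11 (q = 0.000111), where 21.8% of all genes passed. The interaction was 0.33 ± 0.15 with an unadjusted p of 0.0449, and did not pass over all genes (q = 0.547). The falls with TDD in SPF mice and with ABX on CD passed in all 20 fits without 1 mouse, at -0.59 to -0.45 and -0.65 to -0.53. Each was -0.74 in the mice under 1 CPM of Adipoq. The change with diet was -0.43 and missed the threshold in the mice under 1 CPM of Alb (q = 0.0687), and that with ABX passed (-0.53, q = 0.0282).

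Pdk4 on TDD and Plin2 on CD are the members whose groups did not overlap between ABX and none, and their promoter windows are shown for that reason. The windows run from 250 bases before to 50 bases after the RefSeq start on GRCm38.p6, written on the gene's strand. Capitals mark the hexamer AGGTCA on either strand, the core motif to which PPAR-alpha and its partner bind as a repeat.
Pdk4, chr6:5496229-5496528, minus strand: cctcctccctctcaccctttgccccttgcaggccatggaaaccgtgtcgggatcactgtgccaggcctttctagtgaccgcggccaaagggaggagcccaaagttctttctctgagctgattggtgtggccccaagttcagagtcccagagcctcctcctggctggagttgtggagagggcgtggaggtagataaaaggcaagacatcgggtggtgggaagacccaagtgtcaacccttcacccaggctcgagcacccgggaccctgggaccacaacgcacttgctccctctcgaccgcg
Plin2, chr4:86670010-86670309, minus strand: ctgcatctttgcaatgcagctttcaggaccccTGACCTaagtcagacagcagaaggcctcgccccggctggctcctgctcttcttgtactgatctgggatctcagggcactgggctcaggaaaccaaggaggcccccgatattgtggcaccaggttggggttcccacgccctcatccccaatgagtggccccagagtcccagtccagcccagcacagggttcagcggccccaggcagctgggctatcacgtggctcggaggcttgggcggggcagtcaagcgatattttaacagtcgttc
The Plin2 window holds the hexamer once, 218 bases before the start on the opposite strand, and the Pdk4 window does not hold it. Of the 9 genes 7 were found in the promoter table (not Acaa2 and Angptl4). The hexamer was in 3 of these 7 windows, 94 bases before the start of Cpt1a and 249 before that of Acadm besides Plin2, and in 16.26% of 32851 promoter windows of this length. The repeat AGGTCANAGGTCA on either strand was in none of the 7 and in 0.0396% of all windows. Only these exact letters were searched.

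Angptl4 (chr17:33773750-33781830, minus strand) encodes a secreted inhibitor of lipoprotein lipase, and it varied widely between mice of 1 group. In SPF mice it stood at 33.4, 25.8, 59.1, 69.9 and 46.5 CPM on CD and at 24.0, 25.5, 36.5, 33.5 and 16.4 CPM on TDD. With ABX it stood at 17.0, 66.1, 30.1, 75.4 and 84.6 CPM on CD and at 35.3, 27.5, 48.0, 25.3 and 14.5 CPM on TDD. TDD means were lower than CD means with and without ABX, but the groups overlapped. The log2 fold changes of TDD were -0.79 ± 0.40 without ABX (q = 0.205) and -0.86 ± 0.40 with ABX (q = 0.324), neither of which passed, and ABX gave 0.22 ± 0.39 on CD and 0.15 ± 0.40 on TDD (q = 0.796 and 0.831). Most of its TPM was assigned to a transcript annotated for nonsense-mediated decay (70.4% over all mice) and 18.8% to the main coding transcript. The coding share was 18.8 ± 1.21% in CD, 21.5 ± 1.12% in TDD, 17.8 ± 0.99% in CD+ABX and 18.5 ± 2.65% in TDD+ABX mice (SD, n = 5). These shares are kallisto's split of reads that several transcripts can explain.

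Acot1 (chr12:84009490-84018371, plus strand) encodes a cytosolic thioesterase that frees fatty acids from coenzyme A, and it was the least abundant of the 9, between 1.81 and 6.44 CPM. None of its 4 comparisons passed (log2 fold changes from -0.25 to 0.21, SE 0.27 each, q from 0.565 upward). Its neighbours Acot2 to Acot6 on chromosome 12 are close relatives, and how reads were divided among them is uncertain.

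**Figure D2:**
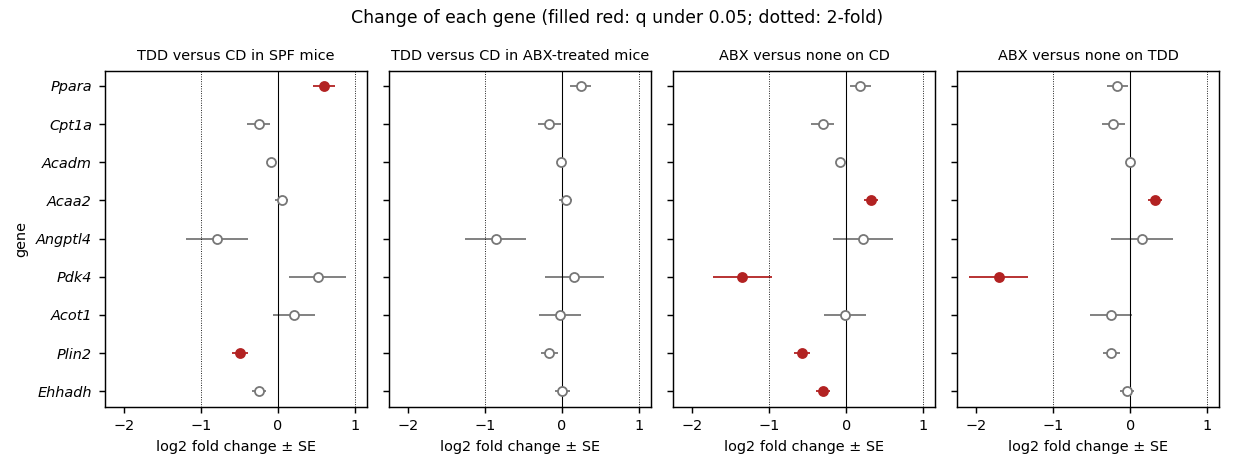
Log2 fold change ± SE of the 9 genes in the 4 comparisons, filled red where q was under 0.05, with dotted lines at 2-fold. Pdk4 passes 2-fold with ABX on either diet, and nothing is filled for TDD in ABX-treated mice.

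Putting each gene's group means in order gave 27 pairs of neighbours over the 9 genes and 4 groups. Of these pairs, 3 differed at a q under 0.05. They were CD above TDD for Plin2, CD above TDD+ABX for Pdk4 and CD+ABX above TDD for Acaa2, each with overlap between single mice. The last 2 come from comparisons in which 21.8% and 25.3% of all genes passed. Cpt1a, Acadm, Angptl4 and Acot1 passed in none of the 4 main comparisons. Per length, mean TPM over the 20 mice ran from Acadm (136) through Acaa2 (83.3), Plin2 (46.5), Ehhadh (45.2), Cpt1a (32.9), Angptl4 (28.0), Ppara (19.2) and Pdk4 (10.8) to Acot1 (5.04). These values take in all transcripts of a gene. On the main coding transcript alone, Angptl4 stood at 5.28, below Ppara at 11.2 and Pdk4 at 10.4.

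Several of these genes carry short annotated transcripts that add TPM without many reads. In Ppara, the main coding transcript held 55.0 ± 6.32% of the gene's TPM in CD mice, 60.9 ± 6.17% in TDD mice, 59.6 ± 3.86% in CD+ABX mice and 57.9 ± 6.25% in TDD+ABX mice (SD, n = 5). Its mean TPM followed the gene, at 8.81 ± 1.82 in CD and 13.3 ± 1.89 in TDD mice. In Acadm the main coding transcript held 61.8% of the TPM over all mice, with 17.2% on a retained-intron transcript of 323 bases. Acaa2, Cpt1a and Ehhadh were each quantified on 1 transcript.

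**Figure D3:**
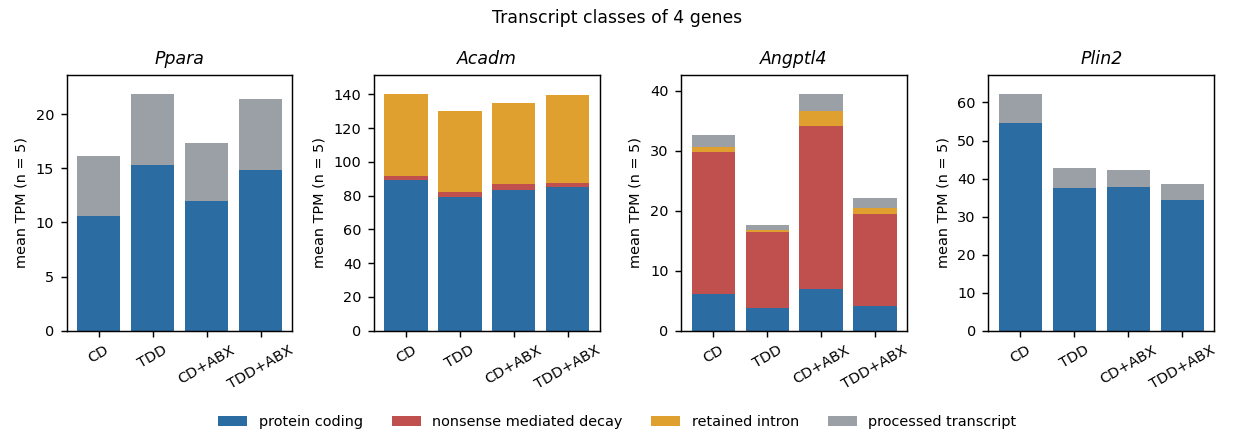
Mean TPM (n = 5) of 4 genes by group, stacked by the annotated class of their transcripts. The protein-coding part of Ppara is higher on TDD, that of Plin2 is highest in CD mice, and most of Angptl4 lies on transcripts annotated for nonsense-mediated decay in all 4 groups.

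Across the 20 mice the 9 genes were only loosely tied to each other. Of 36 pairs, 5 had a Pearson correlation of log2(CPM + 1) over 0.5 and 3 under -0.5, with a median of 0.14, all points sharing the same libraries and groups. Cpt1a and Acot1 were the closest pair (r = 0.73, and 0.88 after the group means were taken out), and Acaa2 and Pdk4 were the most opposed in this sense at r = -0.63, but only -0.12 after the group means were taken out. The gene most like each member over the 20 mice was Mapk6 for Ppara (r = 0.88), Cyp39a1 for Cpt1a (0.81), Akr1a1 for Acadm (0.89), Hs3st1 for Acaa2 (0.93), Abcg2 for Angptl4 (0.81), Xrn1 for Pdk4 (0.91), Rad51d for Acot1 (0.70), Fth1 for Plin2 (0.93) and Samhd1 for Ehhadh (0.90). Each is the best of all genes tested, and such a search picks high values.

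The rest of the pathway was read from 94 further genes in 11 lists by role, of which 86 were tested. TDD feeding of SPF mice raised 3 and lowered 17 of the 86 (median log2 fold change -0.10). Under ABX it raised 2 and lowered 1. ABX raised 5 and lowered 9 in CD mice, and raised 15 and lowered 8 in TDD mice. By limma on TPM it raised 26 and lowered 5 in TDD mice, where 18.9% of all genes passed. The interaction passed for 0 of the 86 by edgeR, 3 by DESeq2 and 1 by limma (14 with an unadjusted p under 0.05), where 0.822% of all genes passed by DESeq2 and 0.0603% by limma. The percentages of all genes that passed by edgeR are given above. Of the calls in these 4 comparisons, 12 of 20, 2 of 3, 10 of 14 and 14 of 23 passed in every fit without 1 mouse.

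Of 13 genes of mitochondrial beta-oxidation other than Acadm and Acaa2, 7 fell on TDD in SPF mice and none rose by edgeR. The median log2 fold change of the 13 was -0.26. By DESeq2 8 fell and by limma 9, where 16.9% and 13.5% of all genes passed. Eci1, which shifts double bonds so that unsaturated chains can be oxidised, fell by 0.45 on the log2 scale (SE 0.05, q = 1.34e-05), from 61.0 ± 2.98 to 44.6 ± 1.46 CPM (SD, n = 5). Acads, the short-chain acyl-CoA dehydrogenase, fell by 0.31 (SE 0.07, q = 0.00406). The number that fell was 4 without CD mouse 3, without TDD mouse 3 or without TDD mouse 4, and 9 without CD mouse 2. It was 3 with only the CD and TDD mice in the fit, where 8.62% of all genes passed, and 2 in the mice under 1 CPM of Alb, where 6.18% did. It was 8 without CD mice 2 and 5 (14.2% of all genes) and 7 in the mice under 1 CPM of Adipoq (6.37%). Under ABX 0 of the 13 changed on TDD by edgeR and by limma and 1 by DESeq2, where 3.76% of all genes passed. By edgeR 2 had an unadjusted p under 0.05. The interaction passed for 0 of them by edgeR and for 1 by DESeq2 and 1 by limma (3 with an unadjusted p under 0.05). The carnitine shuttle genes Cpt2, the inner-membrane partner of Cpt1a, and Slc25a20, the translocase between them, also fell on TDD in SPF mice (log2 fold changes -0.46 ± 0.10, q = 0.00460, and -0.48 ± 0.15, q = 0.0370), and the other 4 shuttle genes did not pass. Slc25a20 was not stable, passing in 12 of 20 fits without 1 mouse (it was lost on leaving out any of CD mice 1, 3, 4 and 5 and TDD mice 2, 3, 4 and 5, with the highest q at 0.0869).

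Peroxisomal genes went in both directions. Acox2, a branched-chain acyl-CoA oxidase that also acts on bile acid side chains, rose on TDD from 2.75 ± 0.77 to 13.2 ± 2.92 CPM without ABX and from 5.21 ± 1.66 to 18.9 ± 2.57 CPM with ABX (log2 fold changes 2.26 ± 0.23 and 1.86 ± 0.22, q = 1.04e-05 and 0.000468). Acaa1b, a peroxisomal thiolase, fell with ABX from 13.9 ± 6.54 to 2.86 ± 0.63 CPM on CD and from 15.0 ± 5.21 to 3.53 ± 2.01 CPM on TDD (log2 fold changes -2.28 ± 0.35 and -2.08 ± 0.35, q = 0.000701 and 0.00139). Hsd17b4, the other peroxisomal bifunctional enzyme, fell on TDD without ABX (-0.49 ± 0.08, q = 0.000839) and rose with ABX on TDD (0.69 ± 0.08, q = 0.000225). These 6 calls passed in every fit without 1 mouse. So did a rise of Acox2 with ABX on CD (0.78 to 1.07), for which the 3 smaller sample sets are not given. In the mice under 1 CPM of Adipoq Acaa1b missed the threshold on either diet (-2.61, q = 0.0578, and -1.48, q = 0.122).

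Among receptors and cofactors, Pparg, a relative of Ppara, rose on TDD in SPF mice (0.80 ± 0.17, q = 0.00353), from 6.68 ± 1.61 to 11.7 ± 1.49 CPM, and Rxrb, a retinoid X receptor, fell (-0.30 ± 0.05, q = 0.000847). In the mice under 1 CPM of Adipoq these were 0.66 (q = 0.130) and -0.27 (q = 0.0711). Ppard and the coactivator Ppargc1a lie outside the rule for named genes and were picked after their values were seen. Ppard fell in all 4 comparisons, by 0.37 and 0.48 on TDD without and with ABX and by 0.37 and 0.49 with ABX on CD and on TDD on the log2 scale (q = 0.0200, 0.0206, 0.0211 and 0.00444). The first 3 of these missed the threshold in 2, 2 and 3 of 20 fits without 1 mouse (without CD mouse 1 or TDD mouse 5, without TDD+ABX mouse 2 or 3, and without CD mouse 1 or 5 or CD+ABX mouse 2), with q up to 0.0543. Ppargc1a fell with ABX on CD and on TDD (-0.60 ± 0.14 and -0.64 ± 0.14, q = 0.00941 and 0.00697).

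Of the other kinases of pyruvate dehydrogenase, Pdk1 also fell with ABX (-0.38 ± 0.07 on CD and -0.27 ± 0.07 on TDD, q = 0.00225 and 0.0167, the latter lost without TDD+ABX mouse 2 at q = 0.0509). Pdk3 fell on TDD without ABX (-0.44 ± 0.06, q = 0.000181) and rose with ABX on TDD (0.54 ± 0.06, q = 0.000225). In the lipid droplet list no gene besides Plin2 changed on TDD in SPF mice by edgeR, DESeq2 or limma (0 of 14, 2 with an unadjusted p under 0.05). Pnpla2, the first lipase of stored triglyceride, fell with ABX (-0.42 ± 0.11 on CD and -0.40 ± 0.11 on TDD, q = 0.0160 and 0.0188), was named after its values were seen, and on TDD was lost without TDD+ABX mouse 1, 2 or 3 (q up to 0.0573). Fabp2, the intestinal fatty acid binding protein, rose with ABX on both diets (1.20 ± 0.18 and 1.22 ± 0.18, q = 0.000543 and 0.000556). Angptl8, a secreted regulator of lipoprotein lipase, rose on TDD without and with ABX (0.57 ± 0.15 and 0.85 ± 0.15, q = 0.0172 and 0.00729), where Angptl4 did not pass. Angptl8 rose with ABX as well. On TDD it passed in all 20 fits without 1 mouse (0.73 to 0.89), and on CD in 14 of 20 (0.45 to 0.63). For these 2 rises the 3 smaller sample sets are not given. Without CD mice 2 and 5 the change of Angptl8 in SPF mice was 0.55 and missed the threshold (q = 0.0593).

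The thioesterase Acot12 had a large but less stable change. It was lower on TDD in SPF mice (-1.33 ± 0.41, q = 0.0343), with CD values from 5.54 to 75.2 CPM, and passed in 13 of 20 fits without 1 mouse (it was lost on leaving out any of CD mice 1, 3 and 4 and TDD mice 1, 2, 3 and 5, at -1.63 to -1.10 and a highest q of 0.0957). Fgf21, Plin5, Acot3, Acot5, Cyp4a14, Cyp4a31 and Cyp4a32 stayed under the filter of 0.5 CPM in at least 1 mouse and were not tested.

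**Figure D4:**
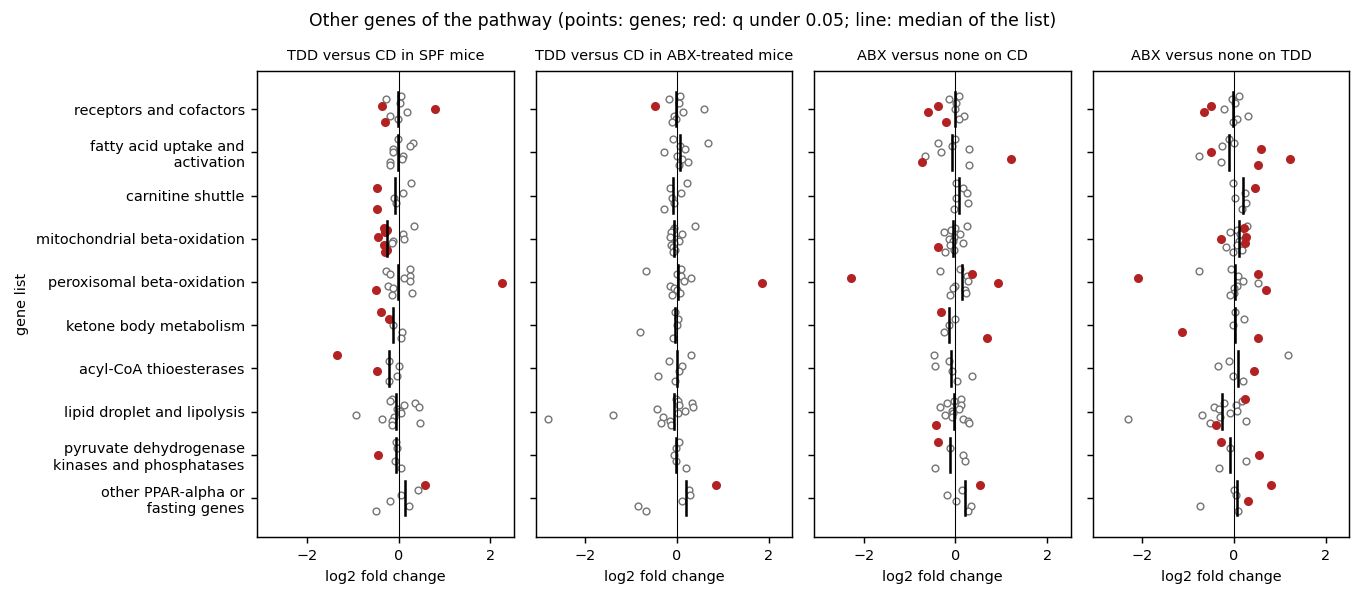
Log2 fold change of each tested gene of 10 pathway lists in the 4 comparisons, with genes at a q under 0.05 in red and the median of each list as a line. In the first panel the mitochondrial beta-oxidation genes that passed all lie to the left of 0, and in the last panel red points lie on both sides.

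Markers of other cell types were set beside these results. The summed level of 5 B cell markers ran from 5.85 to 97.8 CPM in CD, 4.59 to 150 in TDD, 3.90 to 8.54 in CD+ABX and 4.14 to 100.3 in TDD+ABX mice, and that of 5 smooth muscle markers from 439 to 2312, 606 to 1830, 888 to 1902 and 563 to 1839 CPM. The 7 adipocyte markers, 2 of which (Plin1 and Cidec) are also in the lipid droplet list and some of which enterocytes express, summed to 69.8 to 113 CPM in CD, 71.6 to 149 in TDD, 56.2 to 159 in CD+ABX and 66.9 to 81.1 in TDD+ABX mice. Their part in the results was not tested, other than by the fits without the mice named. Besides the losses given above, Ppard passed in none of the 4 comparisons in the mice under 1 CPM of Adipoq (q = 0.0940, 0.194, 0.154 and 0.107). In these mice Angptl8 on TDD (q = 0.0591 without and 0.0783 with ABX), Pdk1 with ABX (q = 0.0840 on CD and 0.331 on TDD) and, with ABX on CD, Pnpla2 (q = 0.0830) and Ppargc1a (q = 0.0561) missed the threshold too. In the mice under 1 CPM of Alb, Slc25a20 (q = 0.205), Acot12 (q = 0.0925), Ppard (q = 0.111) and Angptl8 (q = 0.117) missed it for TDD in SPF mice, and Ppard (q = 0.0697) and Angptl8 (q = 0.0630) for TDD under ABX. With ABX, Ppard (q = 0.139) and Pnpla2 (q = 0.120) missed it on CD and Pdk1 (q = 0.146) on TDD. In whole tissue, fewer cells of a type and less RNA per cell cannot be told apart.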

How the data were processed

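The authors aligned poly-A reads from a NovaSeq instrument to the mouse transcriptome (GRCm38) with kallisto 0.44.0 and deposited expected (estimated) counts per gene, not normalized, and per-transcript estimated counts and TPM. Reads matching several transcripts are split by a model, so shares between transcripts or close paralogues are estimates. Groups came from the sample labels. The members and gene lists were chosen with earlier results of these data known. Counts were rounded, scaled by TMM and tested with edgeR 4.0.16 (quasi-likelihood, robust) in R 4.3.3, all 4 groups in 1 fit, on genes reaching 0.5 CPM in any 1 mouse. A change needed a Benjamini-Hochberg q under 0.05, and a call with the fold limit also 2-fold. The code was tested on simulated data. Alternatives were DESeq2 1.42.0, limma 3.58.1 on log2(TPM + 1), other scaling, filters and sample sets, a replicate block and fits without 1 mouse, plus 3 sample sets added after seeing the data (without CD mice 2 and 5, and only the mice under 1 CPM of Adipoq or of Alb). Genes named beside the members were those called with the 2-fold limit in any comparison and, per list, the 2 with the smallest p for TDD in SPF mice, and others are marked as picked later. Not every gene that met this rule is reported here. Total counts were 36676963 to 58662617 per mouse. The labels give no cage, litter or batch, so p-values measure the spread between these mice and take no account of differences between cages, litters or batches. Gene coordinates are those of GENCODE on GRCm38, and promoter windows those of RefSeq on GRCm38.p6.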

Additional observations from a re-analysis of the deposited data

Results flagged for a closer look

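Of 36 groups of 5 values (9 genes in 4 groups), 2 held a mouse whose gap to the others was large for the range of its group by Dixon's criterion, where chance marks about 1 in 20. In TDD+ABX mice, Pdk4 stood at 23.7 CPM in mouse 3 and between 11.6 and 13.7 CPM in the other 4. In TDD mice, Plin2 stood at 66.4 CPM in mouse 1 and between 47.7 and 50.5 CPM in the other 4. The ABX effect on Pdk4 on TDD and the TDD effect on Plin2 in SPF mice passed in every fit without 1 mouse, these included.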

How the results depend on the processing

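The number of members that changed depended on the processing mainly for ABX on CD. With the 2-fold limit dropped, the calls among the members went from 0 to 2 for TDD in SPF mice, from 1 to 4 for ABX on CD and from 1 to 2 for ABX on TDD. For ABX on CD, the call with the 2-fold limit fell to 0 and the number with q under 0.05 to 2 with no filter on low counts, with only the 2 groups compared, with a replicate block and in mice under 1 CPM of Adipoq. In these fits 6.24%, 9.08%, 10.1% and 4.62% of all genes had a q under 0.05, beside 12.6% in the main fit. In the mice under 1 CPM of Adipoq 1 member changed for TDD in SPF mice (6.37% of all genes). For ABX on TDD 1 changed there (8.18% of all genes) and 0 passed the 2-fold limit. In the mice under 1 CPM of Alb, 1 member passed for TDD in SPF mice, 2 for ABX on CD and 1 for ABX on TDD, where 6.18%, 7.12% and 6.98% of all genes did. Without 1 mouse at a time, members called with the 2-fold limit numbered 0 to 1 for ABX on CD, and members with q under 0.05 numbered 2 to 3 for TDD in SPF mice, 1 to 4 for ABX on CD and 1 to 2 for ABX on TDD. For these 3 comparisons the shares of all genes with q under 0.05 ran from 9.68% to 19.1%, 8.81% to 15.6% and 8.39% to 19.5%.

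None of the values that changed sign had passed the threshold. By limma on log2(TPM + 1) these were Acaa2 for TDD in SPF mice (-0.020), Acadm and Acot1 for TDD under ABX (0.049 and 0.10), Acadm and Ehhadh for ABX on TDD (0.10 and 0.059), and the interactions of Acaa2 and Angptl4 (0.11 and 0.14). In mice under 1 CPM of Adipoq they were Cpt1a, Pdk4, Acot1 and Ehhadh for TDD under ABX (0.24, -0.32, 0.74 and -0.035), Acadm and Angptl4 for ABX on TDD (0.049 and -0.013), and the interactions of Acaa2 and Acot1 (0.15 and 0.34). In mice under 1 CPM of Alb they were Ehhadh for TDD under ABX (-0.023), Acot1 for ABX on CD (0.098), Acadm for ABX on TDD (0.0055) and the interaction of Acaa2 (0.015). Without CD mice 2 and 5 they were Ppara and Acot1 for ABX on CD (-0.017 and 0.078), Acadm for ABX on TDD (0.017) and the interaction of Angptl4 (0.15). Acadm for ABX on TDD was 0.018 with DESeq2's size factors, with DESeq2 and with a filter in 5 mice, 0.016 with no filter and 0.0093 with only 2 groups, and the interaction of Acaa2 was 0.0071, 0.0070, 0.012 and 0.010 under the first 4 of these. The cause was not tested.

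Without 1 mouse, sign changes were seen for Acadm (-0.038 to 0.012), Pdk4 (-0.076 to 0.60), Acot1 (-0.18 to 0.35) and Ehhadh (-0.023 to 0.038) for TDD under ABX, Acot1 for ABX on CD (-0.39 to 0.14), Acadm (-0.014 to 0.022), Angptl4 (-0.066 to 0.34) and Ehhadh (-0.083 to 0.0025) for ABX on TDD, and the interactions of Cpt1a (-0.024 to 0.26), Acaa2 (-0.048 to 0.054), Angptl4 (-0.29 to 0.15), Pdk4 (-0.70 to 0.10) and Acot1 (-0.39 to 0.16). No sample labels pair the mice. Of 30 pairs of same-numbered mice 5 had a correlation of their deviations over 0.1 (-0.36 to 0.25), and 1 of 20 mice correlated best with its own number, so they share only a number. With the replicate block Pdk4 for ABX on CD was -1.37 (q = 0.0525), Ehhadh for ABX on CD missed the threshold (q = 0.0737) and Acot1 for TDD under ABX changed sign (0.036). Depth limited Acot1 most, at 93 counts in TDD+ABX mouse 5.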
